A study of Mus musculus with 2 samples.

Results

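Fibro-adipogenic progenitors (FAPs) are the resident mesenchymal cells of skeletal muscle, and 10 genes that mark fates other than the adipocyte were examined in them. The genes were taken by symbol from the deposited FPKM tables, and all 10 were present among 44291 genes. They comprise 3 tenogenic genes (Scx, Mkx and Tnmd), 1 chondrogenic gene (Sox9), 2 osteogenic genes (Runx2 and Alpl) and 4 genes of matricellular proteins (Tnc, Postn, Spp1 and Sparc). The series holds 2 RNA-seq libraries of primary wild-type mouse FAPs, 1 treated with platelet-rich plasma (PRP) and 1 given vehicle as control. Both cultures were then placed in adipogenic medium with 20% FBS, which contained insulin at 10 µg/ml, dexamethasone at 0.25 µM and the phosphodiesterase inhibitor IBMX at 0.5 mM. The labels name the treatment PRP, while the text of the study speaks of exosomes from human PRP. The methods of the study name young adult C57BL/6 mice and an induction lasting at most a few days, while the labels give neither age nor time for these libraries. How many animals were pooled into a culture is not stated. FAPs were obtained by sorting cells from digested hind limb muscle, so they are a primary population and not a clone.

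Tendon, cartilage and bone cells arise from mesenchymal progenitors under the control of a few transcription factors. Scleraxis (Scx) and Mohawk (Mkx) direct tendon programmes, SOX9 directs cartilage and RUNX2 directs bone. Tenomodulin (Tnmd) is a membrane glycoprotein of mature tendon cells, and tissue-nonspecific alkaline phosphatase (Alpl) frees phosphate for mineral. Matricellular proteins sit in the extracellular matrix and modulate adhesion, and activated fibroblasts make them as well as tendon and bone cells. Osteopontin (Spp1) and osteonectin (Sparc) are also abundant proteins of bone matrix, and periostin (Postn) takes its name from the periosteum.

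Reads assigned to genes numbered 40120843 after PRP and 34139741 in the control. With 1 library per group there is no replicate error, so each difference below is between 2 libraries and carries no test. FPKM is a read number scaled to exon length and to the total of assigned reads. The whole reads behind each FPKM value could be recovered for all 10 genes. From them an exact Clopper-Pearson 95% interval of the PRP to control ratio was computed on fragments, taken as reads divided by 2, and it covers counting error only. Fold changes are differences of log2(FPKM + 1), control subtracted from PRP, and a gene counted as tested when its mean FPKM over both libraries was at least 1. Counts of genes changed by a given fold use this scale. The plain FPKM ratio of a low gene can therefore pass a fold that its log2 fold change does not reach. In bulk RNA, fewer cells of a kind and less RNA per cell cannot be told apart.

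The 10 genes fell into 2 levels. The matricellular genes lay between 108.5 and 955.7 FPKM in both libraries, and the other 6 genes lay between 0.0726 and 2.96 FPKM. Together the 10 genes took 0.613% of the assigned reads after PRP and 0.729% in the control, nearly all of them from the matricellular genes. Only 6 of the 10 genes passed the filter, namely the 4 matricellular genes, Mkx and Sox9. No tested member was changed at least 2-fold, against 2.83% of the 13401 tested genes. At 1.5-fold, 3 of the 6 were changed (Tnc higher, Postn and Spp1 lower), against 10.7% of the tested genes. The counting interval of the ratio lay off 1 for 4 of the 6, against 52.2% of the 12369 tested genes with whole reads, so that this share was close to the background.

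**Figure D1:**
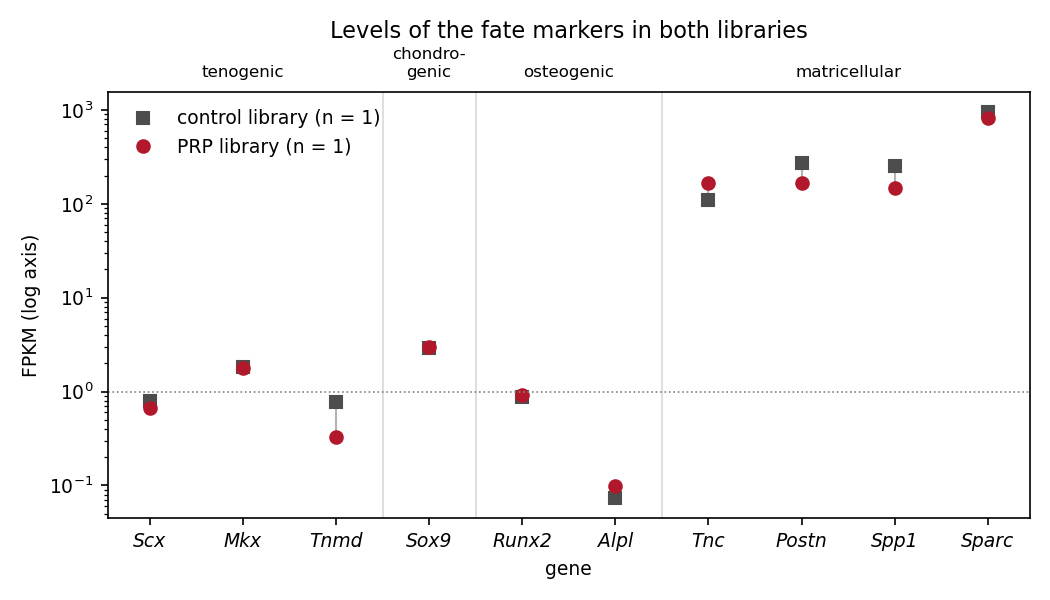
FPKM (log axis) of each fate marker in the PRP library (circles) and the control library (squares), 1 library each, with the dotted line at an FPKM of 1. The 4 matricellular genes lie above 100 FPKM in both libraries, and Sox9 and Mkx are the only others above the line.

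Tenascin-C, a large hexameric glycoprotein made in developing tendon and in injured muscle, was the 1 matricellular member that was higher after PRP. Tnc (ENSMUSG00000028364, GRCm38 chromosome 4, 63959785 to 64047015, minus strand) reached 167.3 FPKM after PRP and 108.5 FPKM in the control. This made a ratio of 1.54 (95% interval 1.51 to 1.57) from 52163 and 28780 reads, and its log2 fold change of 0.62 lay at the 94.7th percentile of the tested genes. By level Tnc ranked 323 among the 27459 genes above 0 after PRP and 477 among the 26141 in the control. Of its exon length, 2.26% is shared with 8030451A03Rik on the opposite strand, which had 6.09 and 2.88 FPKM (PRP first, as in all pairs of values below). The strand setting of the counting is not stated, so reads of the shared bases cannot be assigned to either gene.

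Periostin, a matrix protein that supports cell adhesion, was lower in the PRP library. Postn (ENSMUSG00000027750, chromosome 3, 54361109 to 54391037, plus strand) stood at 168.5 FPKM after PRP against 272.9 FPKM in the control. This is a ratio of 0.617 (0.608 to 0.627), from 58825 and 81066 reads, with a log2 fold change of -0.69 at the 2.96th percentile. Among all genes its rank was 320 after PRP and 169 in the control.

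Osteopontin, a secreted phosphoprotein that binds integrins and mineral, showed a difference of similar size. Spp1 (ENSMUSG00000029304, chromosome 5, 104435118 to 104441050, plus strand) reached 149 FPKM after PRP against 253.4 FPKM in the control, a ratio of 0.588 (0.567 to 0.610) from 9854 and 14255 reads. The log2 fold change of -0.76 lay at the 2.33rd percentile, and the rank of the gene was 358 and 185. A same-strand gene model, Gm42793, shares 18.8% of the Spp1 exon length, and it had 12.9 and 22.6 FPKM. How reads of shared exons were assigned is not stated, so the level of Spp1 is uncertain by that part.

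Osteonectin, a collagen-binding protein that marks active matrix producers, was the most abundant member. Sparc (ENSMUSG00000018593, chromosome 11, 55394500 to 55423183, minus strand) had 814.9 FPKM after PRP and 955.7 FPKM in the control, and it ranked 34 and 29 among all genes. Its read numbers, 123854 and 123588, were almost equal, and the ratio of 0.853 (0.843 to 0.862) comes from the larger total of the PRP library. The log2 fold change of -0.23 lay at the 21st percentile, well inside the 1.5-fold limits.

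Ratios between members of the same library do not depend on how the libraries were scaled. The Tnc level was 0.993 of the Postn level after PRP and 0.398 of it in the control, a 2.5-fold difference (95% Wald interval on fragments 2.44 to 2.56). Relative to Spp1, Tnc stood at 1.12 after PRP and at 0.428 in the control, a 2.62-fold difference (2.52 to 2.73). Relative to Sparc the Tnc level differed 1.81-fold (1.77 to 1.85). The ratio of Spp1 to Postn, in contrast, was 0.885 and 0.929, a factor of 0.953 (0.916 to 0.991). Tenascin-C thus made up more of the matricellular transcripts relative to each of the other 3 members in the PRP library, and the proportion of osteopontin to periostin differed far less.

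**Figure D2:**
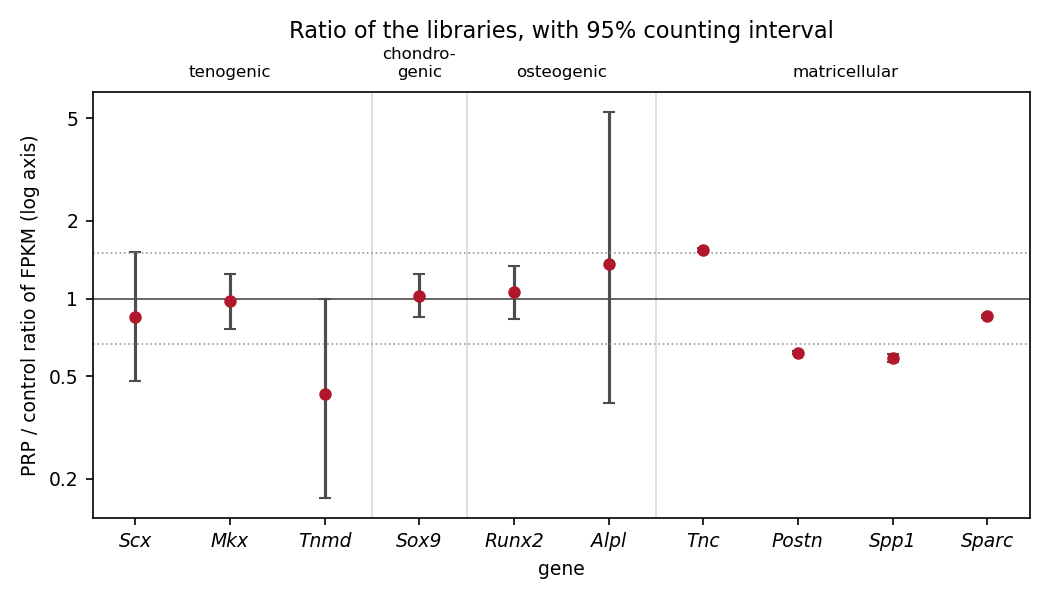
Ratio of PRP to control FPKM (log axis) for each fate marker, with the exact 95% counting interval as bars, the solid line at 1 and dotted lines at 1.5-fold in each direction. Tnc (1.54) lies above the lines and Postn (0.617) and Spp1 (0.588) lie below them, while the intervals of Scx, Mkx, Sox9, Runx2 and Alpl include 1.

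The tenogenic transcription factors were present at low levels. Mkx (ENSMUSG00000061013, chromosome 18, 6934518 to 7004780, minus strand) had 1.78 FPKM after PRP and 1.83 FPKM in the control. With 293 and 256 reads the ratio was 0.974 (0.763 to 1.24), so a difference was not detectable at this depth. Of the Mkx exon length, 4.91% is shared with the same-strand model AC148004.2, which had 0.104 and 0.245 FPKM. Scx (ENSMUSG00000034161, chromosome 15, 76457452 to 76459458, plus strand) had 0.671 FPKM after PRP and 0.788 FPKM in the control, from 54 reads in each. Its ratio was 0.851 (0.480 to 1.51). Neither transcription factor of tendon fate therefore differed beyond counting error.

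Tenomodulin was the tenogenic member with the lowest ratio. Tnmd (ENSMUSG00000031250, chromosome X, 133850980 to 133865577, plus strand) had 0.332 FPKM after PRP and 0.779 FPKM in the control. These values rest on 18 and 36 reads, and the interval of the ratio of 0.425 reached from 0.168 to 0.997, just short of 1. With a mean of 0.555 FPKM the gene stayed below the filter, and its log2 fold change of -0.42 is damped by the pseudocount. A ratio set against Mkx, at 0.186 after PRP and 0.426 in the control, had an interval of the 2 libraries' quotient (0.190 to 1.01) that included no difference.

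SOX9, the factor required for cartilage formation, was the highest of the fate-determining transcription factors. Sox9 (ENSMUSG00000000567, chromosome 11, 112782224 to 112787760, plus strand) had 2.96 FPKM after PRP and 2.89 FPKM in the control. With 491 and 408 reads the ratio was 1.02 (0.847 to 1.24), and the log2 fold change of 0.03 lay at the 52.6th percentile, in the middle of the tested genes.

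Of the osteogenic genes, Runx2 was low and Alpl was at the edge of detection. Runx2 (ENSMUSG00000039153, chromosome 17, 44495987 to 44814797, minus strand) had 0.914 FPKM after PRP and 0.865 FPKM in the control, a ratio of 1.06 (0.834 to 1.34) from 324 and 261 reads. The antisense gene Runx2os1, with 2.99 and 2.33 FPKM, lay above Runx2 itself and shares 5.87% of its exon length. As for Tnc, reads of the shared bases cannot be assigned to either gene. Divided by its longest transcript, a measure added after seeing the data, Runx2 had 1.25 and 1.18 FPKM. Its place under the filter therefore rests on the summed exon length. Alpl (ENSMUSG00000028766, chromosome 4, 137741733 to 137796384, minus strand) had 0.0989 FPKM after PRP and 0.0726 FPKM in the control. With 16 and 10 reads, its ratio of 1.36 had an interval from 0.393 to 5.29, and no difference was detectable.

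In order of level per exon length, both libraries placed Sparc first and Postn next, and both ended with Sox9, Mkx, Runx2, Scx, Tnmd and Alpl. Tnc and Spp1 changed places, with Tnc ahead after PRP and Spp1 ahead in the control. In the PRP library Postn and Tnc did not differ in level beyond counting error (ratio 1.01, interval 0.991 to 1.02), and Tnc exceeded Spp1 by a factor of 1.12 (1.09 to 1.16). In the control library Postn exceeded Spp1 by 1.08 (1.05 to 1.10), and Spp1 exceeded Tnc by 2.34 (2.27 to 2.40). Runx2 and Scx did not differ beyond counting error in either library, nor did Scx and Tnmd. Between the lowest matricellular gene and Sox9 lay a gap of 50.4-fold after PRP and 37.5-fold in the control. The exon length used for FPKM sums all exons of a gene, and it is 1.67 times the longest transcript for Postn against 1.09 times for Tnc. Divided by the longest transcript instead, a choice made after seeing the data, Postn had 281 and Tnc 183 FPKM in the PRP library, so the near equality of their levels holds only per summed exon length.

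**Figure D3:**
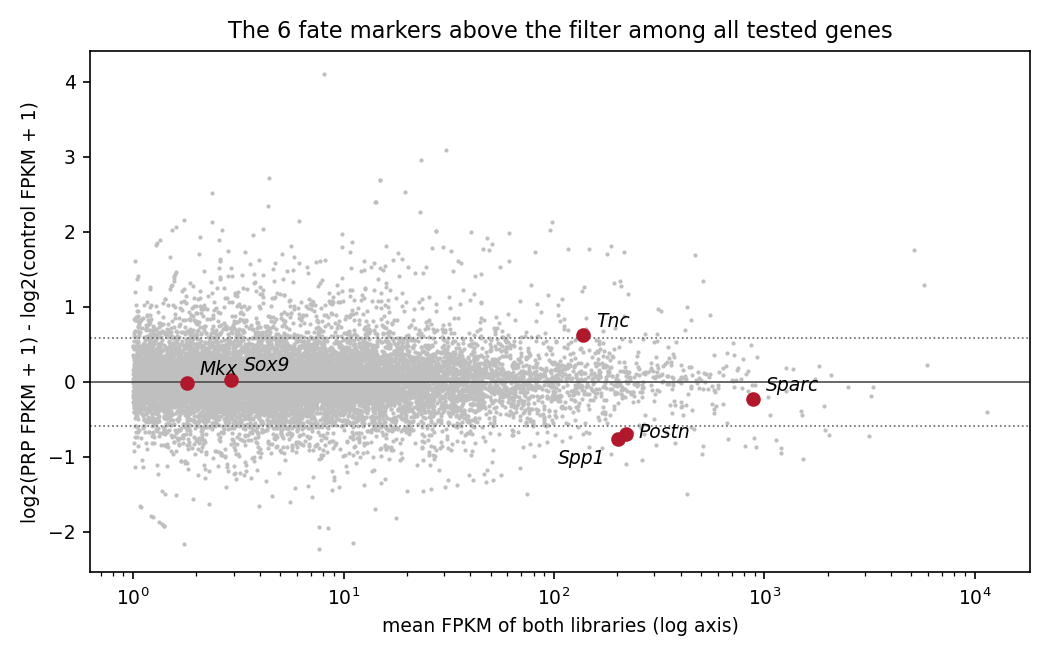
Log2 fold change against mean FPKM (log axis) for the 13401 tested genes (grey), with the 6 tested fate markers as large points and dotted lines at 1.5-fold. Tnc lies above the upper line, Spp1 and Postn below the lower line, and Mkx, Sox9 and Sparc between the lines.

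The other genes of each lineage were compared by lists, with the members left out. Over all tested genes 50.9% were higher after PRP, and among those with whole reads the counting interval lay above 1 for 3234 and below 1 for 3226. Of 14 further tenogenic genes, 13 were analysed and 8 were tested, of which 7 were lower after PRP and 1 was higher. The interval lay below 1 for 6 of the 8 and above 1 for 1. Their median log2 fold change was -0.25, against 0.01 for all tested genes, and it was -0.11 with a pseudocount of 5 and -0.13 with a minimum mean FPKM of 5. At 1.5-fold, 1 of them was lower. The serine protease gene Htra3 had 0.780 against 1.68 FPKM (ratio 0.466, interval 0.342 to 0.629). Thbs4, which encodes a thrombospondin of tendon matrix, had 21.3 against 29.8 FPKM (0.715, 0.666 to 0.768). The exception was Egr1, an immediate-early transcription factor that also takes part in tendon formation, with 4.48 against 3.08 FPKM (1.45, 1.23 to 1.71). Fibromodulin (Fmod), a collagen-binding proteoglycan of tendon named here after its values were seen, stayed under the filter at 0.528 against 1.36 FPKM (0.387, 0.252 to 0.584).

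Cartilage genes were mostly at or near 0. Of 21 further chondrogenic genes 5 were tested, with 4 higher, 1 lower and a median of 0.26, and 1 passed 1.5-fold, in the lower direction. The interval lay above 1 for 3 of the 5 and below 1 for 1. The median was 0.02 without a filter, 0.10 with a pseudocount of 5 and 0.55 with a minimum mean FPKM of 5, which left Prg4 alone, so its size rests on the few genes that passed. Among the defining cartilage genes, aggrecan (Acan), Col9a1, Hapln1 and Snorc were listed at 0 in both libraries and type II collagen (Col2a1) had 10 and 4 reads. Lubricin (Prg4), a lubricant of joint surfaces, had 9.12 against 5.93 FPKM (ratio 1.54, interval 1.37 to 1.73). Its log2 fold change of 0.55, damped by the pseudocount, stayed short of 1.5-fold. Col11a2, a fibril-forming collagen of cartilage, had 3.35 against 2.55 FPKM (1.31, 1.13 to 1.53). Comp, a matrix protein of both cartilage and tendon, was the lower gene, at 1.29 against 2.87 FPKM (0.450, 0.337 to 0.598). Sox5 and Sox6, the partners of SOX9 in chondrocytes, stayed under the filter. Sox5 had 0.168 against 0.352 FPKM (0.477, 0.329 to 0.686), with its interval below 1. Sox6 had 0.0471 against 0.0276 FPKM (1.70, 0.643 to 4.98), and its interval included 1.

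Of 27 further osteogenic and mineralisation genes, 26 were analysed and 10 were tested, with 3 higher, 7 lower and a median of -0.12. The counting interval lay above 1 for 3 of the 10 and below 1 for 3, while those of Cbfb, Phospho1, Tnfrsf11b and Slc20a2, which made up the rest of the lower genes, reached 1. The median had the other sign, 0.07, when the minimum mean FPKM was 5 in place of 1, and it was -0.01 without a filter. Of the genes that set bone cells apart, osterix (Sp7), osteocalcin (Bglap) and Mepe were listed at 0 in both libraries, while bone sialoprotein (Ibsp) had 6 and 0 reads. Of the other genes under the filter, named after their values were seen, some were higher after PRP and others lower. Dmp1, a matrix protein of osteocytes, had 38 and 10 reads (ratio 3.23, interval 1.17 to 11.1). Phex, an endopeptidase of osteoblasts and osteocytes, had 18 and 0 reads, and the homeobox factor gene Msx2 had 78 and 32 reads (2.07, 1.13 to 3.98). Lower values, with intervals that included 1, were those of Enpp1 (80 and 98 reads), Pth1r (68 and 74), Dlx3 (14 and 16), Dlx5 (0 and 6) and Tnfsf11 (2 and 3). Bglap and its near copy Bglap2, with 0 and 8 reads, can share reads, which leaves the split between them uncertain. Smpd3, a neutral sphingomyelinase needed for skeletal mineralisation, had 8.70 against 2.86 FPKM (ratio 3.05, interval 2.65 to 3.51). Matrix Gla protein (Mgp), an inhibitor of calcification, had 140.3 against 299.7 FPKM (0.468, 0.449 to 0.488). Ank, a transporter that supplies the mineralisation inhibitor pyrophosphate, had 3.04 against 6.15 FPKM (0.494, 0.416 to 0.585). These were the 3 largest fold changes among the tested genes of the list, of which Smpd3 and Mgp passed 2-fold.

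Among 16 further matricellular genes 12 were tested, with 9 lower, 3 higher and a median of -0.37. At 1.5-fold, 3 were lower and 1 was higher. The interval lay below 1 for 8 and above 1 for 2 of the 11 with whole reads. The tested genes that differed most were Sparcl1, the closest relative of Sparc, with 4.84 against 10.8 FPKM (ratio 0.447, interval 0.386 to 0.516), Ccn3 with 4.92 against 10.7 FPKM (0.461, 0.397 to 0.534) and Thbs3 with 3.65 against 6.47 FPKM (0.565, 0.492 to 0.647). Together with Postn and Spp1, these genes were lower in the PRP library. The 3 higher genes, named after their values were seen, were Ccn1, Ccn2 and Tnxb. Ccn1, a secreted integrin ligand, had 64.1 against 40.9 FPKM (1.57, 1.47 to 1.67), and its relative Ccn2 had 315.9 against 212 FPKM (1.49, 1.45 to 1.53). Tnxb, another member of the tenascin family, had 5.44 against 4.86 FPKM. Its whole reads could not be recovered, so it has no interval. Tnn, a tenascin of bone and tendon, was under the filter with 9 and 21 reads (0.365, 0.0918 to 1.20). Also under the filter, Tgfbi had 34 and 128 reads (0.226, 0.124 to 0.391). Fbln1 had 88 and 119 reads (0.629, 0.416 to 0.945), and Smoc1 had 66 and 55 (1.02, 0.597 to 1.76).

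**Figure D4:**
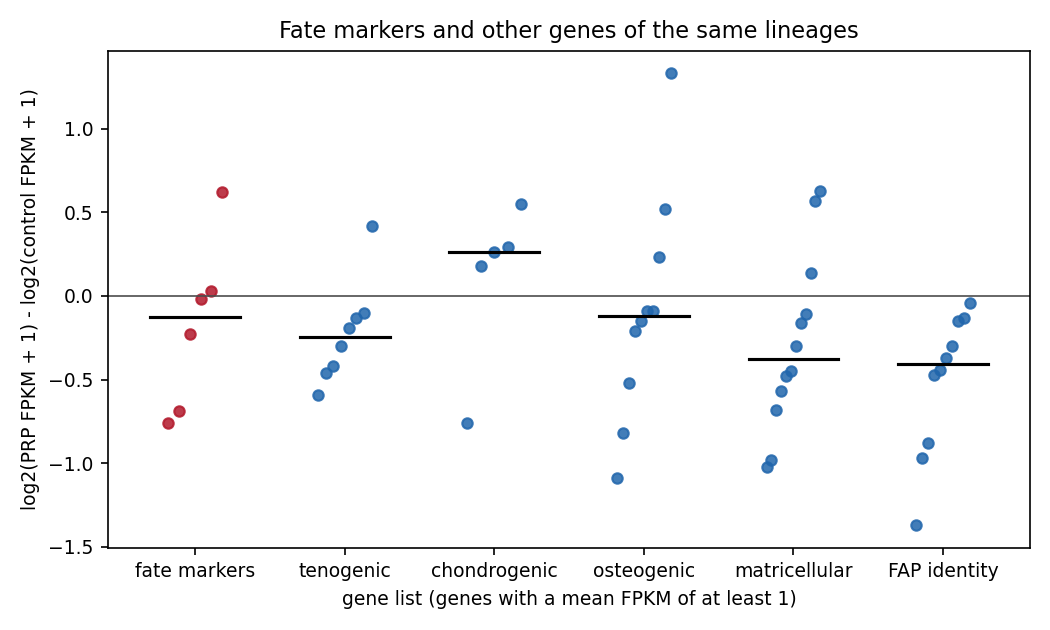
Log2 fold change of the tested fate markers and of the tested genes of 5 other lists, 1 point a gene, with a black bar at each list's median. The FAP identity genes all lie below 0 (median -0.41), and in the tenogenic list 1 of 8 genes lies above it.

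The identity of the cells and the markers of other cell types were read beside these values. All 10 FAP and fibroblast genes were tested and lower after PRP, with a median of -0.41 and a summed level of 1074 against 1342 FPKM. Dcn, at 7.54 against 8.36 FPKM, is counted both in this list and in the tenogenic list, so these lists are not fully separate. Pdgfra, the receptor that defines FAPs, had 19.8 against 28.0 FPKM, Ly6a (Sca-1) had 59.9 against 66.4 FPKM, and the dermatopontin gene Dpt had 18.8 against 50.2 FPKM. Thus FAP genes moved in the same direction as Postn and Spp1, and their part in these differences was not tested. Macrophages and osteoclasts also make osteopontin, and of 12 of their markers 3 were tested, with summed levels of 189 against 124 FPKM. Most of that sum was the protease gene Ctsk (178.4 against 112.8 FPKM), which fibroblasts express too. The other tested markers moved in opposite directions, with the lysosomal glycoprotein gene Cd68 at 4.56 against 2.31 FPKM (ratio 1.98, interval 1.41 to 2.82) and the lysozyme gene Lyz2 at 4.91 against 7.57 FPKM (0.648, 0.512 to 0.820). Of the markers under the filter, Csf1r had 0.596 against 0.457 FPKM (ratio 1.30, interval 0.883 to 1.94) and Acp5 had 0.344 against 0.202 FPKM (1.70, 0.643 to 4.98). C1qa and Itgam were at or below 0.169 FPKM in both libraries. Adgre1, Ptprc, C1qb and Mmp9 were at or below 0.0543 FPKM, and Dcstamp was listed at 0. Endothelial markers summed to 9.59 against 5.46 FPKM (highest Tek, 4.73 against 3.56). The other tested one, Kdr, had 4.23 against 1.5 FPKM (ratio 2.82, interval 2.43 to 3.28). Under the filter, Pecam1 had 47 and 10 reads (4, 1.49 to 13.4) and Vwf had 93 and 46 reads (1.72, 1.02 to 2.97). The intervals of Emcn and Cdh5, also under the filter, included 1. Myogenic markers summed to 21.8 against 18.4 FPKM (highest Acta1, 15.1 against 11.1, with Pax7 and Myog at 0). Of the 3 tested, Acta1 was higher (ratio 1.36, interval 1.17 to 1.57) and 2 were lower. These were Ckm (0.957, 0.781 to 1.17) and Des (0.859, 0.709 to 1.04), whose intervals included 1. Under the filter, Myh3 had 68 and 26 reads (2.23, 1.14 to 4.6). Platelet markers summed to 2.90 against 2.54 FPKM (highest Itgb3, 1.35 against 1.14, with Ppbp and Gp9 at 0). Schwann cell markers summed to 1.47 against 2.86 FPKM (highest S100b, 0.739 against 2.29).

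The promoters of the 3 members that differed by at least 1.5-fold are shown because 2 of them were lower together and 1 was higher. RefSeq windows on GRCm38.p6 were found for 7 of the 10 members, and the 250 bases before the transcription start are printed 5′ to 3′ on the gene's strand. Tnc, Postn and Spp1 have 2 windows each, and the one nearest the 5′ end of the gene in GENCODE M21 was used. The Spp1 start lay 7 bases from that end, and the bases checked after it were not found together in a transcript of the gene. The positions are chr4:64047016-64047265 (minus strand) for Tnc, chr3:54360857-54361106 (plus strand) for Postn and chr5:104434861-104435110 (plus strand) for Spp1. Capitals mark every match, on either strand, to the motifs TGANTCA (AP-1), TGTGGT (RUNX), CANNTG (E-box) and CAGAC (SMAD), and no matches overlap in these 3 windows.
Tnc: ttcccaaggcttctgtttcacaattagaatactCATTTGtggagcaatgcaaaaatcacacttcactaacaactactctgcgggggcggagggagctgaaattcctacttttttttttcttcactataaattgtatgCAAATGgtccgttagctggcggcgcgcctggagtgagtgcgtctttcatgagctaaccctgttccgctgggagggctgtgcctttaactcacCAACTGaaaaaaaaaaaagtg
Postn: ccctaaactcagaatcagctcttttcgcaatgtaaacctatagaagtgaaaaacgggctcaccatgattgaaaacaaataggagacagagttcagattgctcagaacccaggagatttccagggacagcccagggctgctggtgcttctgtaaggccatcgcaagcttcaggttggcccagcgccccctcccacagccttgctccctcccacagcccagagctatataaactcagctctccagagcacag
Spp1: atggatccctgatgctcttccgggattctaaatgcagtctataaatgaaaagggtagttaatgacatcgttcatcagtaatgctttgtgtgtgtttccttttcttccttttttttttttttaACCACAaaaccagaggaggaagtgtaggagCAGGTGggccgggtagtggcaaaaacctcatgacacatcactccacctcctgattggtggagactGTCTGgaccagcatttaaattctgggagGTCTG

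Among all 32851 windows of this length, 6.75% held an AP-1 match, 14% a RUNX match, 66.2% an E-box and 42.2% a SMAD match. The Tnc window held 3 E-boxes, whose first bases lay 217, 113 and 21 bases before the start, and no other match. The Spp1 window held 1 RUNX match 128 bases before the start, 1 E-box and 2 SMAD matches. The Postn window held none of the 4 motifs. The 2 genes that were lower therefore had no motif of this set in common in the windows used, and their other windows were not compared. Runx2 was the other member with a RUNX match in its own window, 80 bases before its start, where it overlaps an E-box. Such matches are letters in a window and not binding sites.

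The study followed the microRNAs let-7f-5p and miR-16-5p, so the members were also searched for their seed matches. The mature mouse sequences from RefSeq are shown with the seed (bases 2 to 8) in capitals.
let-7f-5p: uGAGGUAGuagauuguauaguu
miR-16-5p: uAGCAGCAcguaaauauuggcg

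The 7-base matches CTACCTC and TGCTGCT were looked for in 3′UTRs from GENCODE M21, taking the longest where a gene has several. None of the 10 members held either match, in 3′UTRs of 172 bases (Tnmd) to 3904 bases (Runx2), and those of Tnc, Postn and Spp1 had 648, 738 and 432 bases. Over 20101 genes with a 3′UTR, 9.35% held the let-7 match and 20.9% the miR-16 match. The same search found 1 match of each kind in Tgfbr3, the target that the study followed. Other kinds of match were not searched, and no match says only that these letters are not in these 3′UTRs.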

How the data were processed

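RNA-seq was measured in 1 PRP and 1 control culture of FAPs. Per the labels and the methods of the study, reads were trimmed with fastp 0.23.4, aligned to mm10 with STAR 2.5.3a and counted per gene with featureCounts. The authors deposited FPKM values, and the annotation release, the strand setting and the step from counts to FPKM are not given in the sources used here. Exon lengths and coordinates came from GENCODE M21 (GRCm38, the mm10 build), which has an entry for 41492 of the 44291 genes. With these lengths, 26406 of 28160 genes above 0 (93.8%) gave whole reads in both libraries within 0.001 reads. Even read numbers made up 79.3% and 80.3% of genes with up to 8 reads, so mates were taken as counted separately and fragments as reads divided by 2. PCR duplicates are not removed by this step, and the intervals cover counting error only. The recovered reads served for depth and intervals, and no count test was run. The pseudocount of 1 understates changes of low genes.

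The members and the gene lists were chosen with earlier results of these data known. All members are named, with the 3 largest absolute fold changes among the tested genes of each lineage list and the most abundant marker of each other cell type. Any other gene was named after its values were seen. Alternative settings were a pseudocount of 0.1 or 5, a minimum mean FPKM of 0 or 5, thresholds of 1.5-fold and 4-fold, 2 rescalings (repeated, as an addition after seeing the data, with the control values kept), centring on the median gene and intervals on undivided reads. Python 3.11.15, NumPy 2.4.6, pandas 2.3.3, SciPy 1.17.1 and matplotlib 3.10.9 were used, and the procedures were tested on simulated data.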

Additional observations from a re-analysis of the deposited data

How the results depend on the processing

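No paired analysis was possible because PRP and control have a single library each. All 10 members kept the sign of their fold change under the 7 pseudocounts and scalings tried, with Sox9 down to 0.00 after rescaling without mitochondrial genes and the 50 most abundant genes. That rescaling gave -0.73 for Postn and -0.26 for Sparc, and rescaling to a common sum gave -0.25 for Sparc, each outside the narrow counting interval. Both rescalings also raise all values against the fixed pseudocount, so each was repeated, after seeing the data, with the control values kept as deposited. In the one without mitochondrial genes and the 50 most abundant genes, Tnc had 0.59, Postn -0.72 and Sparc -0.26. The ranges were 0.59 to 0.62 for Tnc, -0.80 to -0.75 for Spp1 and -0.73 to -0.68 for Postn. Tnmd ranged from -1.03 (pseudocount of 0.1) to -0.12 (pseudocount of 5). The number of members changed at least 2-fold was 0 under every alternative except the 1.5-fold threshold, where it was 3. The 4 members whose interval lay off 1 were the same under all scalings, with Tnmd as a 5th without a filter. The osteogenic median was 0.07 with the minimum mean FPKM raised to 5, and the cause was not tested. Without a filter the chondrogenic median was 0.02 and the osteogenic median -0.01. Levels per longest transcript, added after seeing the data, left the order of the 10 members as it was.

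Over all genes, 379 were changed at least 2-fold, against 739 and 113 with pseudocounts of 0.1 and 5, 596 and 638 after the rescalings that also raise the values, 376 after each of them with the control values kept, 210 with the minimum mean FPKM at 5, 1436 at 1.5-fold and 26 at 4-fold. Depth limits Scx, Tnmd and Alpl, with at most 54 reads in a library.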
